A study of Mus musculus with 3 samples.

Results

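The 9 genes described here encode transcription factors of excitatory forebrain neurons: the basic helix-loop-helix (bHLH) factors Neurod1, Neurod2, Neurod6, Bhlhe22 and Tcf4, the MADS-box factors Mef2a, Mef2c and Mef2d, and the homeobox factor Emx1. They were chosen by symbol, and all 9 were found among the 32531 gene rows of the tables. The measurements are read counts of RNA bound to tagged ribosomes (TRAP, translating ribosome affinity purification) from the cerebral cortex of adult C57BL/6J mice of the line Kcnip2-TRAP NIDA115, in which ribosomal protein L10a carries EGFP. The tag is present where the regulatory sequences of Kcnip2 are active, and the 3 libraries are all untreated immunoprecipitates of that 1 group. The labels do not say whether the libraries came from separate animals or from pools, so the spread between them may be technical, and no input or untagged library was analysed here. Enrichment over whole cortex was therefore not measured. In such bulk RNA, fewer cells of a type and less RNA per cell cannot be told apart.

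Neurogenic bHLH factors bind E-box DNA as dimers of a lineage factor, such as a NeuroD protein, with a widely expressed E protein, such as TCF4. Id proteins bind E proteins but not DNA and so hold such dimers off their sites. MEF2 proteins are held in check by class IIa histone deacetylases and are released by calcium signals through calcineurin and kinases. In the cortex, NeuroD and Emx genes are known from the birth and differentiation of pyramidal neurons, and MEF2 genes from the control of excitatory synapse number.

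Coding sequences are shown because the NeuroD and MEF2 genes are paralogs, and reads can be counted per gene only where paralogs differ. The coding stretch where Neurod1 and Neurod2 together were most like Neurod6 comes first. It holds 120 bases of each in transcript orientation, 5′ to 3′ (GENCODE M21 on GRCm38). Capitals mark bases that differ from Neurod6.
Neurod6: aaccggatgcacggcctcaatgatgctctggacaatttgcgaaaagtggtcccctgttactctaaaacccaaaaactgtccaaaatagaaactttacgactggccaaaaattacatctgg
Neurod1: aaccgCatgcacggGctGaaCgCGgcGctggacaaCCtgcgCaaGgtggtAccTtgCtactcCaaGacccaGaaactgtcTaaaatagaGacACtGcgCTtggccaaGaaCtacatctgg
Neurod2: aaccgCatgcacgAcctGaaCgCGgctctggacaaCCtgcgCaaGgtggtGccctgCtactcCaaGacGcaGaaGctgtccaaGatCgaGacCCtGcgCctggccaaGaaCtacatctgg
The stretches lie at chr6:55679219-55679338, chr2:79454585-79454704 and chr11:98327821-98327940, all on the minus strand and each within a single coding exon. Neurod1 and Neurod2 were 90% identical there, with no identical run beyond 23 bases, and each was 78.3% identical to Neurod6.

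The first 120 coding bases of the MEF2 genes, which encode the start of the DNA-binding MADS domain, are shown with capitals where a base differs from Mef2c.
Mef2c: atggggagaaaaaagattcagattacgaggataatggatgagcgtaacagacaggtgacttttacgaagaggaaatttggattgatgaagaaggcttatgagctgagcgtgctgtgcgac
Mef2a: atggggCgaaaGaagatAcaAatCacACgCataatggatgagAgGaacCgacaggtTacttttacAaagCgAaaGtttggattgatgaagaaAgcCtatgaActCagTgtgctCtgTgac
Mef2d: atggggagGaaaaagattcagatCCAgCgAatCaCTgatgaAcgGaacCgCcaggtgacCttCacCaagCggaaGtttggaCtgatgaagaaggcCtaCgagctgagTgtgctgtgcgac
These stretches span 2 coding exons in each gene, from 83575677 to 83592843 on chromosome 13 for Mef2c, 67295513 to 67316845 on chromosome 7 (minus strand) for Mef2a and 88155809 to 88156387 on chromosome 3 for Mef2d. The paralogs were 77.5% to 81.7% identical over them, with identical runs of at most 17 bases. Over whole transcripts, 0 stretches of 50 bases were shared between any members. Neurod2, Neurod6, Bhlhe22, Mef2c and Emx1 shared none with any other gene either. Neurod1 shared 9.66% of its 50-base stretches with Cerkl or Gm26755, Mef2d 7.81% with 1700113A16Rik, Mef2a 3.65% with Lysmd4 and a few others, and Tcf4 0.228%. Of these genes, Lysmd4 was at 8.52 ± 1.67 CPM, Cerkl at 0.712 ± 0.444 and 1700113A16Rik at 0.313 ± 0.272 (SD, n = 3). Gm26755 has no row among the counts, and the levels of the other sharing genes were not examined. CPM are counts per 1e6 counts of a library scaled by TMM (trimmed mean of M values).

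Gene counts summed to 11602248 in replicate 1, 13635132 in replicate 2 and 14174384 in replicate 3, and 61.9%, 67.6% and 70.7% of tallied reads fell in genes. A gene with 0 counts may still be present at up to 0.256, 0.222 and 0.213 CPM, the level of 3 counts, by counting error alone. Of 5 glutamatergic markers, all reached 1 CPM in every library, with a summed level of 6914 to 9427 CPM, most of it Camk2a. The 8 GABAergic markers all did as well, at 2210 to 2586 CPM in sum. Sums were 138 to 235 CPM for 6 astrocyte markers, 383 to 511 for 6 oligodendrocyte, 35.0 to 60.4 for 4 precursor, 33.5 to 55.7 for 6 microglial and 16.1 to 26.0 for 6 endothelial and mural markers. Of these, Opalin, Aif1, Tyrobp, C1qa, Cldn5 and Pecam1 were below 1 CPM in at least 1 library. Some members are also known from these other cells, Tcf4 from interneurons and the oligodendrocyte lineage and Mef2c from interneurons and microglia, and the part of such cells in their levels was not tested.

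Of the 9 genes, 8 were present at 1 CPM or more in all 3 libraries, against 37.3% of all gene rows. Emx1 was the exception. Summed, the 9 genes made up 0.226% of the counts in replicate 1, 0.234% in replicate 2 and 0.247% in replicate 3, and the MEF2 genes and Tcf4 supplied 92.1% of their counts. These 4 genes have long exon sets, so the levels of members are ranked below per kilobase of exon. CPM show how a gene varied between libraries, and where the highest and the lowest gene of a list are named, they are so by CPM, not divided by length.

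**Figure D1:**
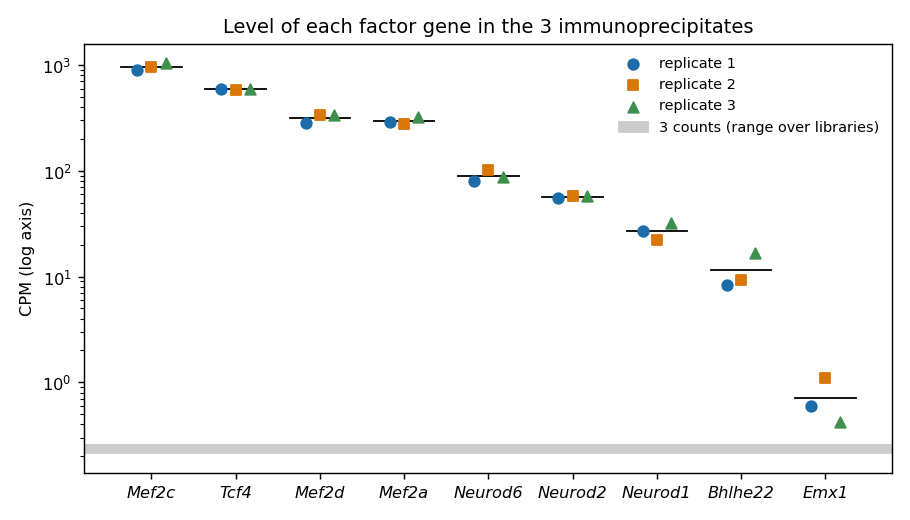
CPM of each of the 9 genes in each library, on a log axis, with the mean as a bar; the grey band is the level of 3 counts. Mef2c lies between 894 and 1035 CPM, and the 3 points of Emx1 lie close to the band.

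Of the NeuroD genes, Neurod6 was the highest. Neurod6, a mark of postmitotic pyramidal neurons (chromosome 6, 55677822 to 55681263, minus strand, GRCm38), was at 80.7, 102 and 86.6 CPM in replicates 1, 2 and 3. Neurod2, a factor of pyramidal neuron maturation (chromosome 11, 98325415 to 98329648, minus strand), was at 55.5, 57.9 and 57.5 CPM. Neurod1, known also from granule cells of the dentate gyrus and cerebellum (chromosome 2, 79452521 to 79456751, minus strand), was at 27.1, 22.0 and 31.8 CPM. Replicate 2 was the highest of the libraries for Neurod6 and the lowest for Neurod1.

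Per kilobase of exon, Neurod6 was at 41.8 ± 5.18, Neurod2 at 18.1 ± 0.412 and Neurod1 at 9.88 ± 1.80 CPM per kilobase (SD, n = 3). Neurod6 exceeded Neurod1 by 1.91, 2.55 and 1.78 on the log2 scale in replicates 1, 2 and 3, a 4.24-fold difference on average (log2 2.08 ± 0.41 SD). Neurod2 exceeded Neurod1 1.85-fold (log2 0.89 ± 0.27) and was below Neurod6 by a log2 ratio of -1.20 ± 0.15, each in 3 of 3 libraries. With 3 libraries the exact two-sided sign-flip test cannot go below p = 0.25, which each of these ratios gave. Because each NeuroD gene has 1 annotated transcript, no choice of transcript length moves this order. Neurod6 supplied 59.7% ± 3.90 of the NeuroD counts per kilobase, Neurod2 26.0% ± 1.12 and Neurod1 14.2% ± 2.98. Of 4 granule cell markers only Prox1 reached 1 CPM in every library, at 16.2 ± 2.71 CPM, while Gabra6 had 0 counts. The other markers were highest in replicate 1. In replicates 1, 2 and 3, Dsp was at 2.05, 0.148 and 0.142 CPM and C1ql2 at 2.81, 0.443 and 1.06 CPM. The part of granule cells in the level of Neurod1 was not tested.

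Bhlhe22, a factor of cortical area identity and of long-range projection neurons (chromosome 3, 18054174 to 18057517), was far lower. It was at 8.27, 9.23 and 16.9 CPM in replicates 1, 2 and 3, from 97, 125 and 238 counts. Replicate 3 stood above the others, and the 95% exact Poisson intervals of replicates 1 (6.70 to 10.1 CPM) and 3 (14.8 to 19.1) did not overlap. These intervals hold counting error only. By edgeR's quasi-dispersion test, Bhlhe22 was not called as more variable than other genes of its level (adjusted p = 0.915). Per kilobase it was at 3.43 ± 1.41 CPM, below Neurod2 by a log2 ratio of -2.46 ± 0.53 in 3 of 3 libraries (exact sign-flip p = 0.25). Prdm8, which encodes the partner with which BHLHE22 represses its targets, was at 116, 107 and 108 CPM, and at 22.8 CPM per kilobase. Prdm8 was thus at a higher level per kilobase than Bhlhe22 in these libraries, and this difference was not tested.

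Tcf4 had the steadiest level of the members. The gene (chromosome 18, 69343356 to 69689079) encodes the E protein TCF4, whose loss of function causes Pitt-Hopkins syndrome in people, and is distinct from Tcf7l2, also called TCF4. It was at 591, 583 and 592 CPM in replicates 1, 2 and 3, from 6939, 7893 and 8361 counts, a coefficient of variation of 0.890%. Of the E proteins, Tcf12 was at 79.0, 104 and 85.1 CPM and Tcf3 at 5.88, 5.32 and 4.18 CPM. Per kilobase of union exon Tcf4 exceeded Tcf12 3.76-fold (log2 1.91 ± 0.22 SD) and Tcf3 16.6-fold (log2 4.05 ± 0.25), each in 3 of 3 libraries (exact sign-flip p = 0.25). Tcf4 supplied 75.4% ± 2.40 of E protein counts per kilobase of union exon, and 81.2% ± 2.11 when counts were divided by the longest transcript. The size of the excess depended on the length used: Tcf4 has 62 annotated transcripts and 27382 bases of union exon, against 8577 for its longest transcript.

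Of the Id inhibitors of E proteins, Id2 was at 15.5 ± 2.85 CPM, Id4 at 9.27 ± 0.964, Id3 at 3.02 ± 1.15 and Id1 at 0.636 ± 0.425, so 3 of 4 reached 1 CPM in all libraries. Per kilobase of union exon Id2 was the highest of them, at 6.37 CPM per kilobase, below Tcf4 at 21.5 ± 0.191. On that scale Id2 lay above Tcf12 at 5.76 and Tcf3 at 1.27. Without division by length Tcf12 was above Id2, at 89.4 ± 13.1 CPM, so no order of Id2 and Tcf12 holds. These differences were not tested. The median of genes past the count filter was 4.53 CPM per kilobase.

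Other bHLH genes of neural lineages were mostly below 1 CPM. Of 14 such genes, 3 reached 1 CPM in all libraries, among them the oligodendrocyte lineage factors Olig1 at 24.5 ± 5.55 and Olig2 at 17.6 ± 4.10 CPM. Neurog2, the proneural gene that acts before NeuroD genes in pyramidal neuron birth, had 0, 3 and 6 counts, and Neurod4 had 4, 16 and 6. There were 0 counts in all libraries for 6 of the 14, Neurog3, Atoh1, Atoh7, Bhlhe23, Olig3 and Ptf1a, which allows up to 0.213 to 0.256 CPM in a library. Among Hes and Hey repressors, 5 of 6 reached 1 CPM in all libraries. Hey1 was the highest at 56.3, 64.0 and 73.2 CPM, and the progenitor gene Hes5 the lowest at 0.987 ± 0.549.

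Of the MEF2 genes, Mef2c was the highest per kilobase and Mef2b was not detected. Mef2c, which controls excitatory synapse number (chromosome 13, 83504034 to 83667080), was at 894, 964 and 1035 CPM in replicates 1, 2 and 3, above 99.1% of the 12509 genes past the count filter by CPM and above 96.0% of those with a length per kilobase. Mef2d (chromosome 3, 88142372 to 88172086) was at 281, 337 and 334 CPM. Mef2a (chromosome 7, 67231163 to 67372858, minus strand) was at 292, 278 and 326 CPM; it was lowest in replicate 2, Mef2d in replicate 1. Mef2b had 0 counts in each library.

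Per kilobase of union exon, Mef2c was at 61.4 ± 4.47, Mef2d at 53.0 ± 5.23 and Mef2a at 20.3 ± 1.68 CPM per kilobase (SD, n = 3). Mef2c exceeded Mef2a 3.02-fold (log2 1.59 ± 0.09) and Mef2d 1.16-fold (log2 0.21 ± 0.08), each in 3 of 3 libraries (exact sign-flip p = 0.25). Mef2a was below Mef2d by a log2 ratio of -1.38 ± 0.17, but this rests on the 14681 bases of union exon of Mef2a. Divided by the longest transcript, the log2 ratio was -0.12 ± 0.17, and by the mean coding transcript it was 0.037, so no order of Mef2a and Mef2d holds. The lead of Mef2c held under each of the 3 lengths and grew to 1.39 over Mef2d with the longest transcript. Mef2c supplied 45.5% ± 0.57 of the MEF2 counts per kilobase of union exon, Mef2d 39.3% ± 1.70 and Mef2a 15.1% ± 1.13. Without division by length the shares were 61.0% ± 0.069, 20.1% ± 1.14 and 18.9% ± 1.18.

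**Figure D2:**
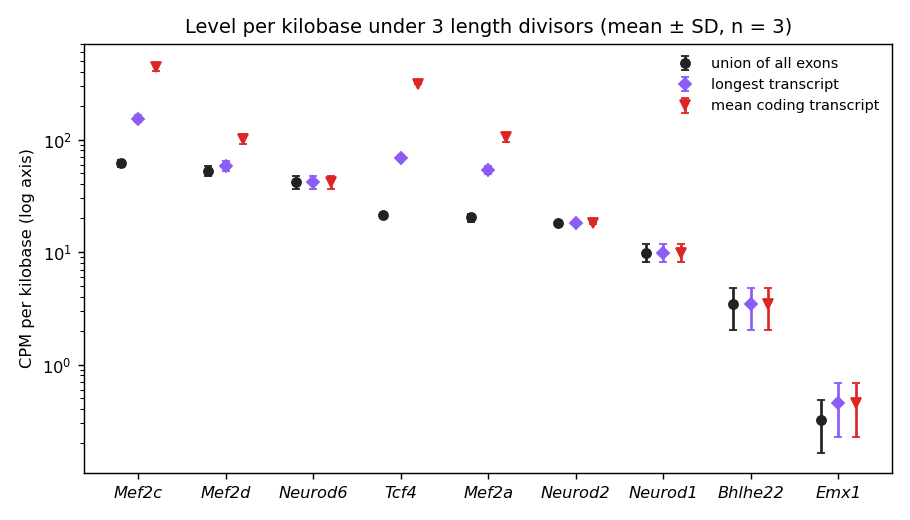
Mean CPM per kilobase (± SD, n = 3 libraries, log axis) of the 9 genes, divided by the union of all exons, the longest transcript or the mean coding transcript. The divisors give 1 value for the NeuroD genes and Bhlhe22 and move Tcf4 from 21.5 to 313 CPM per kilobase and Mef2c from 61.4 to 442.

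Regulators of MEF2 were measured beside them. Calcineurin, the calcium-activated phosphatase that acts on MEF2, was represented by its catalytic gene Ppp3ca at 1100.0, 1452 and 1533 CPM and its regulatory gene Ppp3r1 at 744, 912 and 1082 CPM. Replicate 1 was the lowest for both. Of all 7 signal genes it was the lowest for 4, beside 36.6% of all genes past the count filter. Replicate 2 was the lowest for 2 of the 7 and replicate 3 for 1. The kinase gene Camk4 was at 367, 488 and 521 CPM, and Mapk7, the MEF2 kinase ERK5, was the lowest of the 7 signal genes at 4.96 ± 1.39. All 7 reached 1 CPM in every library. By edgeR's quasi-dispersion test 0 of the 7 varied beyond other genes of their level (adjusted p = 0.80 for Ppp3r1, the smallest of them), beside 0.0879% of all genes called. At an unadjusted p under 0.05 there were 3 of 7, beside 5.72% of all genes.

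All 5 corepressor genes also reached 1 CPM in every library. Hdac9, a class IIa deacetylase that binds MEF2, was at 114, 124 and 127 CPM, and Hdac7 was the lowest at 1.53, 6.13 and 1.91. Of 6 genes reported as MEF2 targets in neurons, Homer1, a postsynaptic scaffold gene, was the highest at 233, 246 and 275 CPM. Bdnf, which encodes a neurotrophin, was the lowest at 10.5, 13.8 and 20.8 CPM. Of the 6 target genes, 5 were lowest in replicate 1, beside 36.6% of all genes past the count filter. Mef2c and Mef2d were lowest there too and Mef2a in replicate 2, and whether targets follow MEF2 levels was not tested. By edgeR's test 0 of the 6 passed, beside 0.0879% of all genes. At an unadjusted p under 0.05 there were 2 of 6, Arc and Nr4a1, beside 5.72%.

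**Figure D3:**
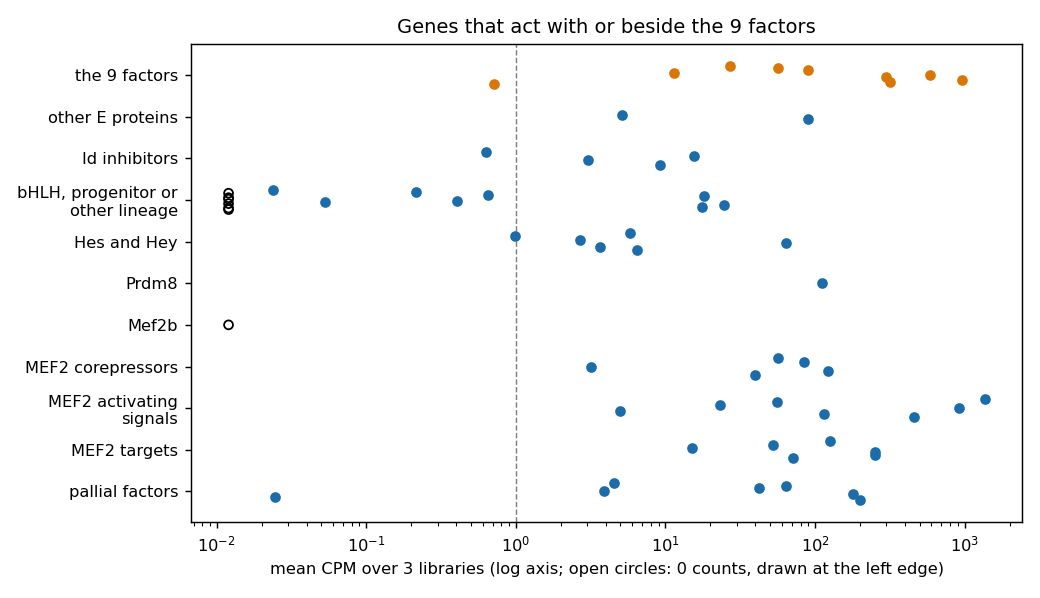
Mean CPM over 3 libraries (log axis) of the 9 factors and of the genes that act with or beside them, by list, with 1 CPM as a dashed line and genes with 0 counts as open circles. Most lineage bHLH genes lie left of the line, and all MEF2 corepressors, signals and targets lie right of it.

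Emx1, a homeobox gene of the dorsal forebrain that marks the lineage of cortical excitatory neurons (chromosome 6, 85187438 to 85204462), was close to the counting limit. It had 7, 15 and 6 counts, or 0.597, 1.11 and 0.425 CPM, in replicates 1, 2 and 3. The 95% exact Poisson intervals were 0.240 to 1.23, 0.620 to 1.83 and 0.156 to 0.925 CPM, and all overlapped. Emx1 was below the count filter and was not tested for spread. Per kilobase it lay below its paralog Emx2 by a log2 ratio of -2.00 with an SD of 0.996 over 3 of 3 libraries (exact sign-flip p = 0.25). Emx2 itself was at 3.84, 3.40 and 6.31 CPM. Of the list of 7 pallial factors, 6 reached 1 CPM in all libraries. Eomes, of intermediate progenitors, was the lowest, with 1 count in replicate 2 and 0 in the others.

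Over all 9 genes, the order per kilobase of union exon was Mef2c, Mef2d, Neurod6, Tcf4, Mef2a, Neurod2, Neurod1, Bhlhe22 and Emx1. Of the 8 neighbouring pairs, Tcf4 and Mef2a did not differ beyond their spread (log2 ratio 0.08 ± 0.11, higher in 2 of 3 libraries). Neurod2 lay under Mef2a by only 0.16 ± 0.12 on that scale. With either transcript length, Tcf4 moved to the place after Mef2c, and Neurod6, Neurod2, Neurod1, Bhlhe22 and Emx1 came last in that order. The median of the 8 members past the count filter was 20.9 CPM per kilobase, beside 4.53 over the genes past the filter with a length.

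Between the libraries, 0 of the 8 members tested varied more than genes of their level. edgeR's quasi-dispersion test called 0.0879% of 12509 genes at an adjusted p under 0.05, and the smallest adjusted p of a member was 0.915, for Bhlhe22. At an unadjusted p under 0.05 it called 0 of the 8 and 5.72% of all genes, and DESeq2 marked 0 of the 8 and 0.224% of genes as dispersion outliers. In data simulated from these libraries for 12509 genes, the test recovered 81% of genes changed 4-fold in 1 library and 99% of those changed 8-fold. Each simulated gene had the spread of the trend for its level, and no change under 4-fold was simulated. The simulation thus does not show how often the test finds smaller differences, such as the 2.04-fold one of Bhlhe22.

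The ratio of the highest to the lowest library was 1.02 for Tcf4 (95% counting interval 0.985 to 1.05) and 1.04 for Neurod2 (0.939 to 1.16), both within counting error. It was 1.16 for Mef2c, 1.17 for Mef2a, 1.20 for Mef2d and 1.27 for Neurod6, with intervals that all lay above 1. The median of this ratio was 1.19 over the 8 members past the filter and 1.34 over all genes past it, so intervals set against counting error alone do not single out the members. For Neurod1 it was 1.45 (1.25 to 1.68) and for Bhlhe22 2.04 (1.60 to 2.61). The interval of Emx1 ran from 0.955 to 8.20. The intervals cover counting error only, and picking the highest and the lowest library widens the ratio.

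Of the 8 members past the filter, 5 were lowest in replicate 1, namely Neurod2, Neurod6, Bhlhe22, Mef2c and Mef2d, against 36.6% of all genes past it. None of the 8 was highest in replicate 1, against 36.4% of genes, although Tcf4 was highest there when library sizes were not TMM-scaled. The other 3, Neurod1, Tcf4 and Mef2a, were lowest in replicate 2, against 31.8% of genes. The median deviation of the 8 from their own means was -0.07, -0.01 and 0.09 on the log2 scale in replicates 1, 2 and 3, with medians within 0.0034 of 0 over all genes past the filter. All 5 glutamatergic markers were lowest in replicate 1 as well. Earlier results of these data had already shown glutamatergic genes low in replicate 1, so these counts are descriptions only. Of the other markers past the filter, 3 of 8 GABAergic, 4 of 6 astrocyte and 3 of 5 oligodendrocyte ones were lowest there. So were 3 of 4 precursor, 2 of 3 microglial and 4 of 4 endothelial and mural markers. Markers below the filter are not in these counts and differed in direction. Pecam1 (42, 8 and 1 counts), Cldn5 (2, 0 and 0) and Tyrobp (7, 1 and 1) were highest in replicate 1. C1qa (2, 6 and 10 counts) was lowest there. Aif1 (3, 27 and 3) was highest in replicate 2 and Opalin (13, 4 and 18) in replicate 3. The summed astrocyte level was 138 CPM in replicate 1 against 235 and 203 in replicates 2 and 3, and the microglial one 33.5 against 55.7 and 51.2. The glutamatergic, precursor and endothelial and mural sums were also lowest in replicate 1. The oligodendrocyte sum was lowest in replicate 3, at 440, 511 and 383 CPM in replicates 1, 2 and 3. The GABAergic sum was lowest in replicate 2, at 2365, 2210 and 2586 CPM. Its genes did not move together: 3 of the 8 were lowest in replicate 1, 2 in replicate 2 and 3 in replicate 3. The sum thus does not give the direction of each GABAergic marker. Replicate 1 also had the fewest gene counts and the smallest share of reads in genes; the part of these in the members' values was not tested.

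**Figure D4:**
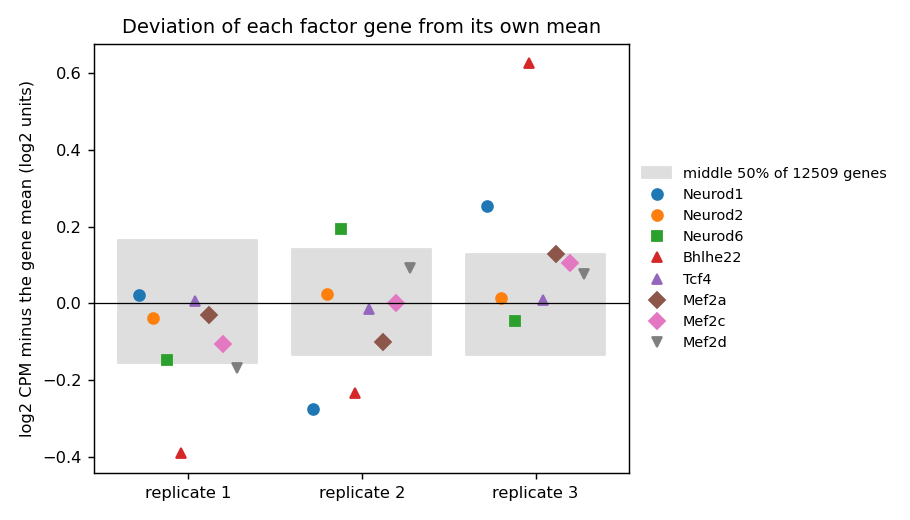
log2 CPM of each of the 8 members past the count filter minus its own mean, by library, with the middle 50% of 12509 genes in grey. Bhlhe22 lies outside the grey band in all 3 libraries, at -0.39, -0.23 and 0.62, and Tcf4 lies at 0.0063, -0.015 and 0.0085.

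The genes whose profile over the 3 libraries was most like that of Neurod6, the leading bHLH member per kilobase of union exon (Tcf4 leads with either transcript length), were found among genes of a like level (mean log2 CPM within 0.25). They were Luc7l, Ubl4 and Rbl2, at Euclidean distances of 0.0065, 0.023 and 0.033 in log2 deviation, among 678 candidates. A profile of 3 libraries has little room to differ, so these are descriptions of nearness only.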

How the data were processed

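RNA bound to EGFP-tagged ribosomes was measured in 3 libraries of 1 group, grouped and numbered by their titles. The authors deposited raw read counts per gene symbol; the submitters' processing notes name STAR 2.0.0e, HTSeq and mm10. Annotation, counting mode and strand handling: not given in the sources used here. Whether reads of a gene and its antisense partner were told apart is thus not known. The 6 rows that name no gene were left out, 1 of them named unknown with 0 reads.

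Levels are CPM with TMM-scaled library sizes (edgeR 4.0.16, R 4.3.3), and log2 CPM have a prior count of 2. Exon lengths were taken from GENCODE M21 (GRCm38, the mm10 assembly), with 23161 rows matched on the symbol and 737 on an older one; 96.7% of the 12509 genes past filterByExpr (minimum count 10) have one. A union exon length is not that of the transcript expressed. Spread between libraries was tested over all genes past the filter with edgeR's quasi-likelihood fit (glmQLFit, intercept-only, robust): the F ratio of quasi-dispersion to trend, Benjamini-Hochberg at 0.05. It was tested on simulated data. The common biological coefficient of variation was 0.197. Ratios of gene pairs were tested by exact sign flips. Alternatives were DESeq2 1.42.0 size factors and dispersion outliers, other filters, priors and lengths, and leaving out each library. All p-values refer to the spread of these libraries, which may be technical.

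All members are named. Of the other genes, the highest and the lowest of each list by mean CPM, all genes of lists of up to 4 and any called by the test are named by rule, except some results not reported here; Olig2, Neurog2, Neurod4, Ppp3r1, Camk4, Arc, Nr4a1, the genes at 0 and the markers below 1 CPM were named after their values were seen. The members and lists were chosen with earlier results of these data known.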

Additional observations from a re-analysis of the deposited data

How the results depend on the processing

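Length was the choice that mattered. With the longest transcript, Tcf4 was at 68.7, Mef2a at 53.9, Mef2c at 154 and Mef2d at 58.8 CPM per kilobase, and with the mean coding transcript 313, 105, 442 and 102. The log2 ratio of Tcf4 over Tcf12 was 2.28 with the longest transcript, 3.29 with the mean coding transcript and 2.73 with no length division, and of Tcf4 over Tcf3 5.28, 7.23 and 6.82. Mef2c over Mef2d was 1.39, 2.12 and 1.60 in that order, and Mef2c over Mef2a 2.08 with the mean coding transcript and 1.69 with no division. Mef2a over Mef2d was -0.12 with the longest transcript and -0.087 with no division, and turned to 0.037 with the mean coding transcript. Neurod2 over Neurod6 was -0.65 with no division. DESeq2 size factors and a prior count of 0.5 moved no ratio or level beyond its SD. The same held for leaving out each replicate, after which 0 members were called in each case and 9, 4 and 9 of all genes were (without replicates 1, 2 and 3), against 11 with all. Bhlhe22 alone reached an unadjusted p under 0.05, without replicate 1 (0.0432) or 2 (0.0355). No member was called with no count filter (66 of all genes), without robust moderation (5) or as a DESeq2 dispersion outlier (28). The count of 5 members lowest in replicate 1 was the same with DESeq2 size factors, total counts and no count filter. Depth limits Emx1 most. No paired analysis was possible because the libraries form a single group.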
